A study of Mus musculus with 6 samples.

Results

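Gene expression in arthritic synovial tissue was compared between week 15 and week 6 after immunization, on 4 of the 6 arrays of a time course of collagen-induced arthritis, chosen by the week in their titles. The comparison held every gene detected on the arrays, 10167 features in all, and both week 15 arrays are shown separately. Collagen-induced arthritis models human rheumatoid arthritis: in mice, an immune response to type II collagen, the main collagen of joint cartilage, inflames the joints. All mice were male DBA/1, an inbred strain prone to this disease, with an age given as 6 to 8 weeks for every array. With tissue taken 6 or 15 weeks after immunization, that range cannot be the age at sampling for both weeks. If it is the age at the start, the week 15 mice were older when sampled, and age and disease phase cannot be told apart here. All were immunized at the base of the tail with bovine type II collagen, 100 µg emulsified in complete Freund's adjuvant, and boosted through a footpad 2 weeks later, with incomplete adjuvant. The design text gives week 6 as the induction phase, week 9 as the peak and week 15 as the resolution phase. RNA came from pooled synovial tissue around the ankle joints, without the boosted hind foot and without skin, with an RNA integrity number that averaged 9.5. Each week had 2 arrays, and untreated mice were not analysed here. Whether the arrays of a week hold separate pools of mice is not stated, so a p-value covers only the array-to-array spread, possibly a technical one.

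The synovium is the thin tissue that lines a joint. In arthritis its fibroblasts secrete matrix and matrix-degrading enzymes, its vessels admit leukocytes, and its macrophages take up dying cells as well as driving inflammation. Resolution is an active phase in which neutrophil entry stops and cleared tissue is rebuilt. Immediate early genes such as Fos encode short-lived transcription factors that cells of nearly any type induce within minutes of a stimulus, and chaperones such as Hspa1a are induced by protein damage.

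The level of a gene is the background-corrected, quantile-normalized log2 signal of its brightest probe, and a change is the mean level at week 15 minus that at week 6. Median raw intensities lay between 99.07 and 129.5, with the second week 15 array the dimmest, and 47.88% to 50.73% of probes were detected above background. All 4 arrays detected 14 of 29 synovial fibroblast markers, but only 1 of 21 cartilage markers and 3 of 16 bone markers were. Lymphocyte markers were nearly complete, with 22 of 24 T cell and 19 of 20 B cell genes detected on all 4 arrays. The week 15 arrays stood further apart than the week 6 arrays: their log2 differences had an SD of 0.51 against 0.30, and 452 features (4.45%) differed by over 1 log2 unit, against 47 (0.462%) at week 6. Both week 15 arrays lay on the same side of the week 6 mean for 63.4% of features, and the first was the brighter for 53.2% of features and the second for 46.6%. As a list, skeletal muscle genes were high only on the first week 15 array, and type I interferon genes were higher on the second array of both weeks. Both lists are described with their values at the end.

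A linear model over all 6 arrays (limma) called 5 genes higher at week 15, 0.0492% of 10167, and 0 lower (0%), at an adjusted p under 0.05. At an unadjusted p under 0.05 there were 600 higher (5.9%) and 866 lower (8.52%). Both week 15 arrays lay above both week 6 arrays for 2002 features (19.7%) and below both for 2469 (24.3%), which is called a separation of the groups here. Changes were negative for 5402 features (53.1%) and positive for 4765 (46.9%), with a median of -0.02. A change above 1 was seen for 69 features (0.679%) and a change below -1 for 206 (2.03%). The counts of calls depended on single arrays. Without the first week 15 array 377 features were called higher and 636 lower, and without the second 21 and 2. Without either week 6 array 3 genes were called higher and 0 lower.

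The 5 genes that rose were Hspa1a, Fos, Fosb, Dusp1 and Ccl3. Hspa1a encodes the inducible cytosolic chaperone of the Hsp70 family. Its log2 signal was 6.14 and 5.32 on the first and second week 6 arrays, and 12.37 and 11.96 on the week 15 arrays. Both week 15 levels were far above both week 6 levels, and the week 9 mean of 8.61 lay between them. The change was 6.44 (SE 0.34, adjusted p = 0.000946), an 86.8-fold rise on this scale and the largest in the comparison.

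Fos and Fosb encode subunits of the transcription factor AP-1, which they form together with Jun proteins. Fos read 7.70 and 7.45 at week 6, and 13.55 and 13.26 at week 15. In the deposited intensities these were 329.5 and 269.6 against 12744.2 and 6566, so the groups were far apart before any normalization too, although the second week 15 array was the dimmer one. The change of Fos was 5.83 (SE 0.29, adjusted p = 0.000946). Fosb read 5.39 and 4.91 at week 6, where it was above background on 1 of 2 arrays, and 9.76 and 9.65 at week 15. The week 15 arrays nearly coincided, and the change was 4.55 (SE 0.22, adjusted p = 0.000946).

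Dusp1 encodes a nuclear phosphatase that switches off MAP kinases and is itself an immediate early gene. Its levels were 9.04 and 9.16 at week 6 against 12.28 and 11.75 at week 15, a change of 2.92 (SE 0.22, adjusted p = 0.00923). The groups did not overlap, and the first week 15 array was the higher one. Ccl3 encodes an inflammatory chemokine that draws monocytes and T cells. It read 6.52 and 6.25 at week 6 and 9.66 and 8.94 at week 15, a change of 2.91 (SE 0.29, adjusted p = 0.0386). Its week 15 arrays also lay clear of week 6, with a wider gap between them than for the other 4 genes. Fos, Fosb and Hspa1a passed in each alternative setting in which they were tested, which was 16, 15 and 16 settings. The sizes depended on the setting: with the authors' processed values the change was 5.09 for Fos, 2.34 for Fosb, 4.54 for Hspa1a and 1.68 for Ccl3, and without background correction it was 2.88 for Fosb and 5.01 for Hspa1a. Dusp1 passed in 14 of 16, with an adjusted p of 0.172 and 0.109 without the first and the second week 6 array. Ccl3 passed in 8 of 16, and its adjusted p reached 0.322 without the second week 6 array.

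**Figure D1:**
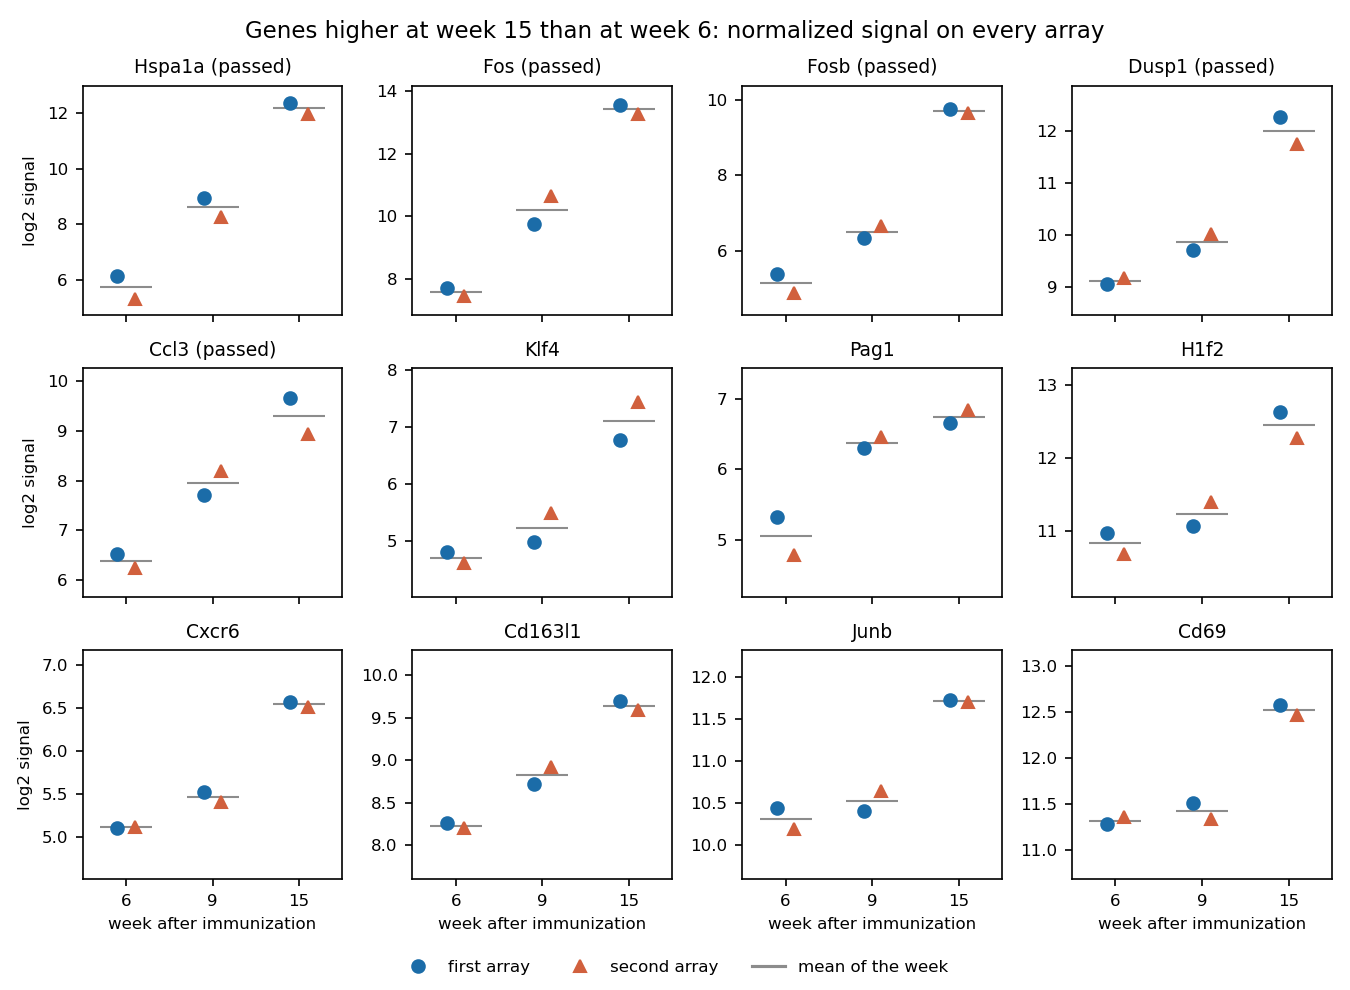
Normalized log2 signal (y axis, its range set per panel) against the week after immunization (x axis) for the 5 genes that passed and the next 7 by p-value with separated groups, which did not pass. Circles are the first array of a week, triangles the second, and grey bars their mean. The Fos arrays at week 15 sit at 13.55 and 13.26, above 7.70 and 7.45 at week 6.

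The 200 bases before the start of transcription are shown for 4 of the called genes, since these genes moved together and their proximal promoters can be set side by side. All 5 called genes matched an entry among the RefSeq promoters of the mouse build GRCm38.p6. Capitals mark every match, on either strand, to one of the motifs searched: the cyclic AMP response element core TGACGT, the heat shock element pairs GAANNTTC and TTCNNGAA, the AP-1 site TGANTCA, the TATA box TATAAA, the CArG box and the kappaB motif. Positions count back from -1, the base before the start. The Fos window is chr12:85473690-85473889 on the plus strand, Dusp1 chr17:26508473-26508672 on the minus strand, Hspa1a chr17:34972157-34972356 on the minus strand and Fosb chr7:19310046-19310245 on the minus strand.
Fos: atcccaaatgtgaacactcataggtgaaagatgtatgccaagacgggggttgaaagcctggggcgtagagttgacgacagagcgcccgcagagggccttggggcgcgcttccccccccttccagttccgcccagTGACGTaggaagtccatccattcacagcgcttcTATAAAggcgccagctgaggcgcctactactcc
Dusp1: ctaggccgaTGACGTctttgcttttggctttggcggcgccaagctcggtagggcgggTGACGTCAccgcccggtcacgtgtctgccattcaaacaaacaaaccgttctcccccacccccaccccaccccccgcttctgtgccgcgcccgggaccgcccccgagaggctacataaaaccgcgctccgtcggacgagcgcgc
Hspa1a: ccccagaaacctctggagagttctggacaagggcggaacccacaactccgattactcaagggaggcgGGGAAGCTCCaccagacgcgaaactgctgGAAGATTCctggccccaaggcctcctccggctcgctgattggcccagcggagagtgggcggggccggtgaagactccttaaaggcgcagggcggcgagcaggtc
Fosb: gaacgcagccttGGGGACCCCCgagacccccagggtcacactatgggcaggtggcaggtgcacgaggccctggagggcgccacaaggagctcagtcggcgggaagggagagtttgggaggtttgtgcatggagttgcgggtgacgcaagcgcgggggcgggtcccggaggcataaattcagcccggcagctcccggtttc
Fos held TGACGT at -66 to -61 and a TATA box at -33 to -28. Dusp1 held TGACGT at -191 to -186 and at -143 to -138, and the latter overlapped a match on the other strand at -141 to -136. Hspa1a held the GAANNTTC pair at -104 to -97 and a kappaB match at -133 to -124. Fosb held a kappaB match at -188 to -179, and the Ccl3 window held none of the motifs. Among all 32851 promoter windows of this length, 5.85% held TGACGT, 5.36% GAANNTTC, 5.72% TTCNNGAA, 5.48% TGANTCA, 9.96% TATAAA, 6.07% the kappaB motif and 1.18% the CArG box. A match describes the letters only, and no binding was measured.

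The wider list of immediate early genes leaned the same way. Of 34 listed genes, 31 were on the array and 22 were tested. A positive change was seen for 16 of these, and 15 (68.2%, against 19.7% of all features) had separated groups in that direction. Upward changes with an unadjusted p under 0.05 numbered 12 of the 22, and downward ones 3. Over all features the shares were 5.9% upward and 8.52% downward. Their median change was 0.89, at 0.92 on the first and 0.79 on the second week 15 array, against -0.02 over all features. Fos and Fosb were the 2 members that passed. The members were chosen with results of these arrays known, so their counts describe the list and test nothing.

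Among the Jun partners of Fos, Junb read 10.44 and 10.19 at week 6 and 11.72 and 11.71 at week 15, a change of 1.40 (SE 0.18, adjusted p = 0.0605). Its week 15 arrays nearly coincided above week 6. Jun itself read 6.97 and 6.90 against 9.55 and 8.29, and Jund 8.20 and 8.17 against 9.48 and 9.51; both were named after their values were seen and neither passed. Egr1, a zinc finger factor induced with Fos, read 11.19 and 11.23 against 13.15 and 12.55 (change 1.64, SE 0.24, adjusted p = 0.0789). Klf4, a Krüppel-like factor, was not above background on either week 6 array, at 4.81 and 4.61, and read 6.77 and 7.43 at week 15. It was at least 4.21-fold higher there (adjusted p = 0.0605), but its other probes gave smaller changes of 1.74 and 0.51. Other members went the opposite way or stayed level. Ier3 read 8.65 and 8.09 against 7.96 and 7.31, Ccn2 read 7.34 and 6.55 against 6.19 and 6.01, and Srf, the factor that binds the CArG box of Fos, read 10.20 and 10.16 against 10.18 and 9.85. These 3 were also named after their values were seen.

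The 9 MAP kinase phosphatases tested, Dusp1 included, had a median change of 0.13, with 5 positive and 4 negative. Dusp2, a phosphatase of activated lymphocytes, read 10.20 and 10.42 against 10.94 and 11.02 (change 0.67, adjusted p = 0.223), and Dusp4 had a change of 0.53 (adjusted p = 0.281). Dusp6, which acts on ERK, read 11.38 and 11.37 against 11.24 and 11.23. Of the 16 heat shock chaperones tested, 13 had a positive change, with a median of 0.23, and Hspa1a alone passed. Hsp90aa1, the inducible cytosolic Hsp90, had a change of 1.10 (adjusted p = 0.221). Its probe was dim, at 4.66 and 5.42 at week 6, where it was above background on 1 of 2 arrays, and 5.82 and 6.46 at week 15. The change of Hsp90aa1 ranged from 0.30 to 1.48 over 15 alternative settings. The mitochondrial pair Hspe1 and Hspd1 had changes of 0.78 and 0.56. Hspa8, the constitutive counterpart of Hspa1a, read 14.93 and 14.87 against 15.09 and 14.93, so its arrays of both weeks lay close together.

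The stress genes of the endoplasmic reticulum had a median change of 0.16, with 15 of 19 positive. Ppp1r15a, which restores translation after stress, read 8.85 and 8.54 at week 6 and 11.16 and 10.36 at week 15, a change of 2.07 (SE 0.29, adjusted p = 0.0688). Atf4, the transcription factor of the integrated stress response, had a change of 0.84 (adjusted p = 0.183). Sel1l, which takes misfolded proteins out of the reticulum, had -0.77 (adjusted p = 0.163), but its other probes gave -0.53 and 0.07.

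The CC and CXC chemokines divided. Of 24 tested, 18 had a negative change and 11 (45.8%, against 24.3% of all features) had separated groups in that direction. Ccl3 and its close relative Ccl4 were the 2 with groups separated upward (8.33%, against 19.7%). Ccl4 read 9.05 and 9.33 at week 6 and 11.21 and 10.42 at week 15 (change 1.62, SE 0.27, adjusted p = 0.103). The lymphoid homing chemokines had negative changes. Ccl21b, a ligand of Ccr7 made by lymphatic vessels and lymphoid stroma, read 11.51 and 10.84 against 10.05 and 8.75 (change -1.77, SE 0.42, adjusted p = 0.194). Ccl21a, which is nearly identical in sequence so that probes may read both, read 12.51 and 11.90 against 11.39 and 9.93. Cxcl12, the stromal ligand of Cxcr4, had a change of -1.19 (SE 0.33, adjusted p = 0.222), and Cxcl13, which draws B cells to follicles, had -0.43 (adjusted p = 0.324). For each of these 4 the second week 15 array was the lowest of the 4 arrays.

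Several lymphocyte surface genes were among the higher genes closest to the threshold. Cxcr6, the chemokine receptor of tissue T cells, read 5.10 and 5.12 at week 6 and 6.58 and 6.52 at week 15 (change 1.44, SE 0.16, adjusted p = 0.0587). Cd163l1, a scavenger receptor family member found on gamma delta T cells in mice, read 8.26 and 8.20 against 9.70 and 9.59 (change 1.41, SE 0.16, adjusted p = 0.0605). Cd69, an early activation marker that retains lymphocytes in tissue, read 11.28 and 11.36 against 12.58 and 12.47 (change 1.20, SE 0.16, adjusted p = 0.0605). All 3 were named for a small p and separated groups, so the closeness of arrays within a week and the gap between weeks follow from that choice. Cxcr6 was detected on all 4 arrays but was dim at week 6, with deposited intensities of 131.8 and 128.6. The mean background there was 111.2 and 109.6. The change of Cxcr6 ranged from 0.39 to 1.53 over the 16 alternative settings. Pag1, an adaptor that restrains T cell receptor signalling, had a change of 1.70, and H1f2, a linker histone, had 1.63, each with an adjusted p of 0.0605.

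The T cell identity genes had smaller changes, the highest at 0.60. The 23 tested had a median change of 0.10, with 17 positive, where 46.9% of all features were positive. Groups were separated upward for 9 (39.1%, against 19.7% of all features). The median was 0.06 for 20 B cell genes, but -0.14 on the first week 15 array and 0.21 on the second. On the first array 15 of the 20 were below the week 6 mean, and on the second 15 were above it. For 14 cytotoxic and NK cell genes the median was 0.19, at 0.27 and 0.14 on the first and second array. Cd3e, a chain of the T cell receptor complex, read 11.60 and 11.49 against 12.02 and 11.59, with overlapping groups, and Cd3g had a change of 0.56 (adjusted p = 0.241). Ifng, the gene of interferon gamma, read 5.95 and 6.11 against 7.31 and 6.94 (change 1.10, SE 0.20, adjusted p = 0.116), and its other probe gave 0.64. Eomes, a factor of cytotoxic cells, had 0.78 (adjusted p = 0.3), but Prf1, the pore-forming perforin, had -1.31 (adjusted p = 0.149) and its other probe -0.14. Tnf and Il1b, the inflammatory cytokines, had changes of 0.56 (adjusted p = 0.304) and 0.33 (adjusted p = 0.46), and Il10, an anti-inflammatory cytokine not above background at week 6, was at least 1.165-fold higher (adjusted p = 0.331). Il6, Ccl2, Cxcl5 and Ptgs2 were too dim on these arrays to be tested.

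Extracellular matrix genes had mostly negative changes. Of 21 proteoglycan and elastic fiber genes tested, 20 had a negative change and 18 had groups separated downward (85.7%, against 24.3% of all features), with a median change of -1.01. None passed. Ltbp4, which anchors latent TGF-beta to elastic fibers, read 7.16 and 6.73 at week 6 and 5.80 and 5.72 at week 15 (change -1.18, SE 0.19, adjusted p = 0.097). Elastin itself, Eln, read 6.46 and 6.15 against 5.38 and 5.21 (change -1.01, adjusted p = 0.116). Ogn, a small leucine-rich proteoglycan, had -0.99 (adjusted p = 0.111), and Loxl1, an enzyme that cross-links elastin, had -1.71 with a larger error (SE 0.40, adjusted p = 0.19). The list's median difference from the week 6 mean was -0.79 on the first week 15 array and -1.10 on the second, but the first week 6 array also exceeded the second by a median of 0.43.

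Of 17 collagen chains tested, 16 had a negative change, and 10 (58.8%, against 24.3% of all features) had groups separated downward. The list median was -0.66. Col6a1, a chain of the beaded filaments around cells, read 9.88 and 9.42 at week 6 and 8.15 and 7.96 at week 15 (change -1.59, SE 0.24, adjusted p = 0.0809), and its other probe gave -1.54. Col1a1, a chain of the main fibrillar collagen, read 6.95 and 5.85 against 5.33 and 5.27 (change -1.10, SE 0.33, adjusted p = 0.241). The gap between its week 6 arrays was about as wide as the change. Col4a2 of the basement membrane had -1.47 (adjusted p = 0.177).

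Of 22 synovial fibroblast genes tested, 17 had a negative change, and 14 (63.6%, against 24.3% of all features) had groups separated downward. The list median was -0.67, at -0.44 on the first week 15 array and -0.91 on the second. Vcam1, an adhesion molecule of lining fibroblasts and inflamed endothelium, read 11.41 and 11.01 against 10.10 and 9.81 (change -1.25, SE 0.20, adjusted p = 0.0925). Pdgfra, a growth factor receptor that marks fibroblasts, had -1.61 (SE 0.37, adjusted p = 0.177). Thy1 and S100a4, which lymphocytes also express, did not follow: Thy1 read 12.24 and 12.09 against 12.37 and 12.67, and S100a4 read 6.29 and 6.52 against 7.57 and 6.88. The summed linear signal of the list was 19790 and 16540 at week 6 and 14740 and 15150 at week 15. In pooled tissue, fewer cells of a type and less RNA per cell cannot be told apart.

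Among 20 matrix proteases and inhibitors tested, 18 had a negative change, with a median of -0.47. In this list the first week 6 array exceeded the second by a median of 0.36. Leaving that array out brought the list median to -0.23, and it was -0.17 with the authors' processed values. Mmp2, a gelatinase made by stromal cells, read 8.85 and 8.60 at week 6 and 7.48 and 7.21 at week 15 (change -1.38, SE 0.20, adjusted p = 0.0809). Mmp3, a stromelysin that degrades cartilage matrix, read 9.07 and 8.00 against 7.87 and 6.73 (change -1.24, SE 0.44, adjusted p = 0.289), and the first week 15 array lay just under the second week 6 array. Timp3, a matrix-bound inhibitor, had -1.62 (adjusted p = 0.208), and Timp1, a soluble one, had -0.73 with overlapping groups (adjusted p = 0.471). Mmp13, the collagenase of cartilage breakdown, had 0.01 (adjusted p = 0.989).

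Vascular genes had mostly negative changes, larger on the second week 15 array. Of 27 endothelial genes tested, 24 had a negative change, and 16 (59.3%, against 24.3% of all features) had groups separated downward. The list median was -0.87, at -0.52 on the first week 15 array and -1.42 on the second. The first week 6 array exceeded the second by a median of 0.62 in this list. Glycam1, a mucin ligand for L-selectin on high endothelial venules, read 10.92 and 9.76 at week 6 and 8.98 and 7.57 at week 15 (change -2.06, SE 0.51, adjusted p = 0.208). Cd300lg, a receptor of capillary and venule endothelium, read 7.20 and 6.57 against 5.72 and 5.11 (change -1.47, adjusted p = 0.122). Plvap, which forms the diaphragms of fenestrated vessels, had -1.52 (adjusted p = 0.211), and Ramp2, part of the adrenomedullin receptor, had -1.81 (adjusted p = 0.154). Pecam1 and Ly6c1, which leukocytes also carry, overlapped between the weeks, at 9.89 and 9.35 against 9.44 and 10.42 for Pecam1. The smooth muscle and pericyte genes had a median of -0.71, at -0.31 and -1.21 on the first and second week 15 arrays, with 10 of 11 negative. Leaving out the first week 15 array moved the endothelial median to -1.42 and the smooth muscle median to -1.21.

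**Figure D2:**
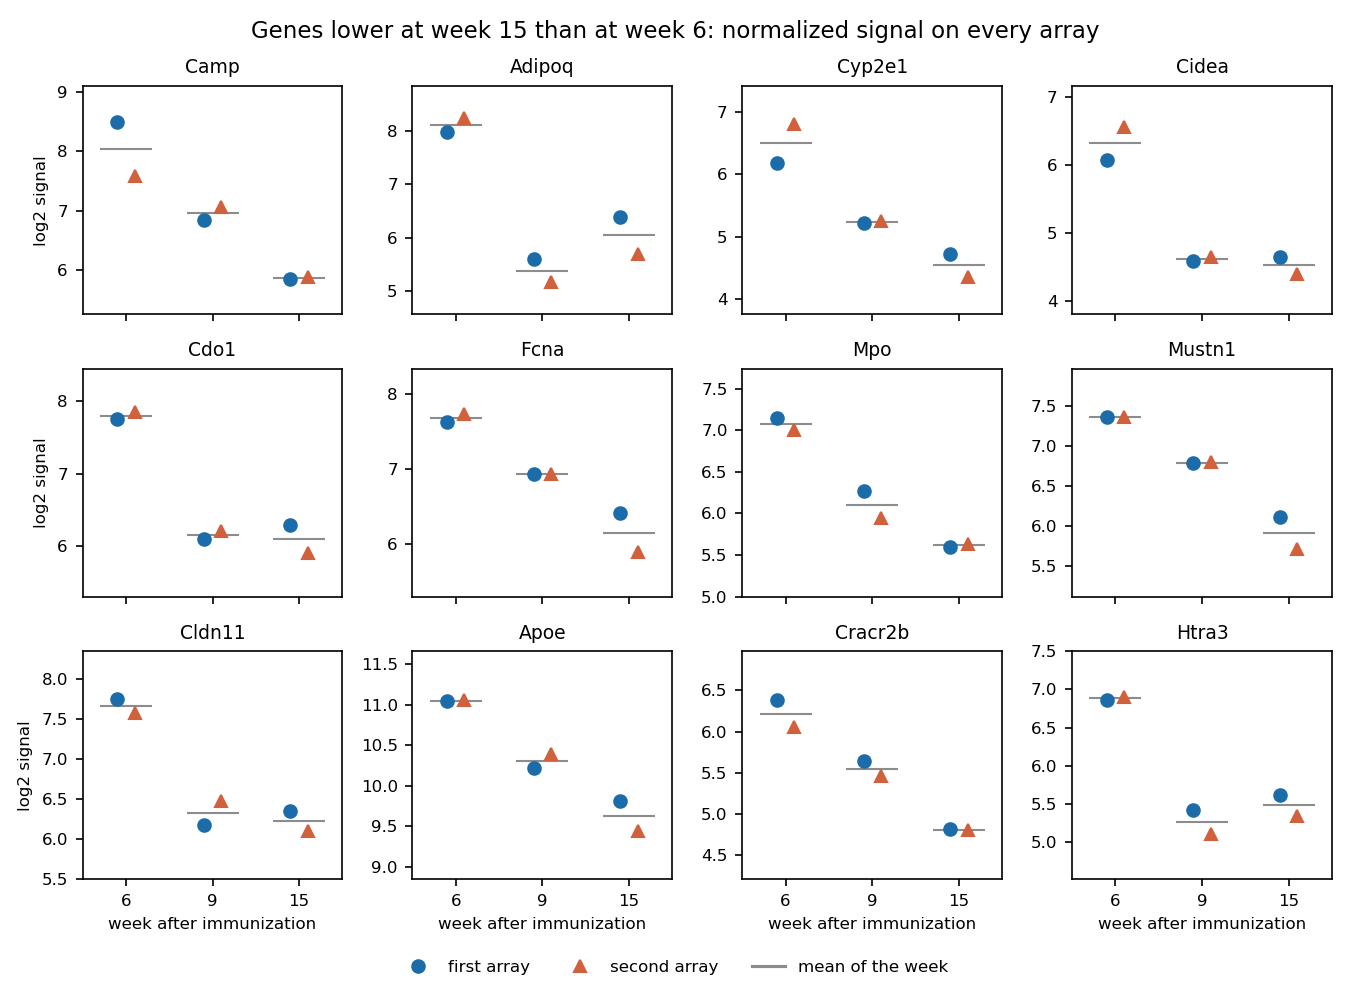
Normalized log2 signal (y axis, its range set per panel) against week (x axis) for the 12 genes of smallest p with both week 15 arrays below both week 6 arrays, none of which passed. Circles are the first array of a week, triangles the second, and grey bars their mean. Camp sits at 8.50 and 7.59 at week 6 and at 5.86 and 5.89 at week 15.

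Fat cell genes were among the lower genes closest to the threshold. Of 21 adipocyte genes tested, 19 had a negative change, and 16 (76.2%, against 24.3% of all features) had groups separated downward. The list median was -0.71, at -0.41 on the first week 15 array and -1.01 on the second. Adipoq, the hormone adiponectin, read 7.97 and 8.24 at week 6 and 6.39 and 5.70 at week 15 (change -2.06, SE 0.27, adjusted p = 0.0605). Cidea and Cidec, lipid droplet proteins, were not above background on either week 15 array and were at least 2.44-fold (adjusted p = 0.0605) and at least 2.33-fold (adjusted p = 0.0717) lower there. Both week 15 arrays lay below week 6 for all 3, which for Adipoq and Cidea was part of the rule that named them. Cdo1, the cysteine dioxygenase of taurine synthesis, read 7.75 and 7.84 against 6.29 and 5.91 and had the smallest p of the lower genes (change -1.70, SE 0.19, adjusted p = 0.0587). Cyp2e1, a cytochrome P450, was not above background at week 15 and was at least 2.75-fold lower (adjusted p = 0.0605). The summed signal of the adipocyte list was 9495 and 11210 at week 6 and 7710 and 5908 at week 15.

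Macrophage genes had mostly negative changes too. Of 22 monocyte and macrophage genes tested, 20 had a negative change, and 16 (72.7%, against 24.3% of all features) had groups separated downward. The list median was -0.77, at -0.48 on the first week 15 array and -0.93 on the second. Apoe, a lipid carrier made by tissue macrophages, read 11.04 and 11.06 at week 6 and 9.80 and 9.44 at week 15 (change -1.43, SE 0.19, adjusted p = 0.0605). Mrc1, the mannose receptor, read 8.38 and 8.20 against 7.34 and 7.09 (change -1.07, adjusted p = 0.116), and Cx3cr1, the fractalkine receptor of lining macrophages, had -1.10 (adjusted p = 0.122). Trem2, a lipid-sensing receptor, had -1.25 (adjusted p = 0.195). Lyz2, the lysozyme of myeloid cells, read 14.68 and 14.67 against 14.19 and 14.12. Clec7a, the beta-glucan receptor, overlapped between the weeks, at 8.99 and 8.71 against 9.23 and 8.69.

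The receptors and bridging proteins for apoptotic cells had a median change of -0.76, with 12 of 14 negative. Groups were separated downward for 11 (78.6% of those tested, against 24.3% of all features). The median depended on the choice of probe: with each probe as a feature it was -0.0069. With the authors' processed values it was -0.31. Timd4, a phosphatidylserine receptor of resident macrophages, read 7.98 and 8.17 against 7.12 and 7.35 (change -0.83, adjusted p = 0.149). Pros1, which bridges phosphatidylserine to the Axl and Mertk receptors, had -0.86 (adjusted p = 0.153), and Mfge8, which bridges it to integrins, had -1.39 (adjusted p = 0.196). The complement genes had a median of -0.63, with 14 of 17 negative, and the median was -0.34 without the second week 6 array, -0.41 without the second week 15 array and -0.94 without the first week 15 array. C1qa, a chain of the first component, had -1.35 (adjusted p = 0.211) and C4b had -1.58 (SE 0.48, adjusted p = 0.241), in both cases with the second week 15 array as the lowest. Fcna, a ficolin that starts the lectin pathway, read 7.64 and 7.74 against 6.42 and 5.90 (change -1.53, SE 0.21, adjusted p = 0.0605).

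Neutrophil granule genes differed from week 6 by about the same amount on each week 15 array. Of 19 neutrophil genes tested, 17 had a negative change, and 12 (63.2%, against 24.3% of all features) had groups separated downward. The list median was -0.66, at -0.67 on the first week 15 array and -0.64 on the second. In this list the first week 6 array exceeded the second by a median of 0.40. Leaving out the first week 6 array gave a list median of -0.48, and leaving out the second gave -0.83. With the authors' processed values it was -0.20. Camp, the antimicrobial cathelicidin, read 8.50 and 7.59 at week 6 and 5.86 and 5.89 at week 15 (change -2.17, SE 0.29, adjusted p = 0.0605). Mpo, the myeloperoxidase of primary granules, read 7.14 and 7.00 against 5.60 and 5.63 (change -1.46, SE 0.18, adjusted p = 0.0605). Ltf, the iron-binding lactoferrin, read 9.34 and 8.45 against 7.15 and 6.75 (change -1.95, SE 0.31, adjusted p = 0.0925). In all 3 every week 15 level was below every week 6 level, which for Camp and Mpo was part of the rule that named them. S100a8 and S100a9, the subunits of calprotectin, had smaller changes of -0.69 (adjusted p = 0.25) and -0.76 (adjusted p = 0.208). Lcn2, an alarmin that binds bacterial iron carriers, had -1.08 (adjusted p = 0.238), and Saa3, a serum amyloid, had -0.22 with overlapping groups. Hp, the hemoglobin-binding acute phase protein, had -1.36 (adjusted p = 0.146), and its other probes gave smaller changes of -0.4 and -0.66. Csf3r and Fpr2, receptors of mature neutrophils, overlapped or had positive changes: Fpr2 read 10.77 and 10.28 against 11.06 and 10.62, and Csf3r read 5.85 and 5.76 against 6.20 and 5.48.

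**Figure D3:**
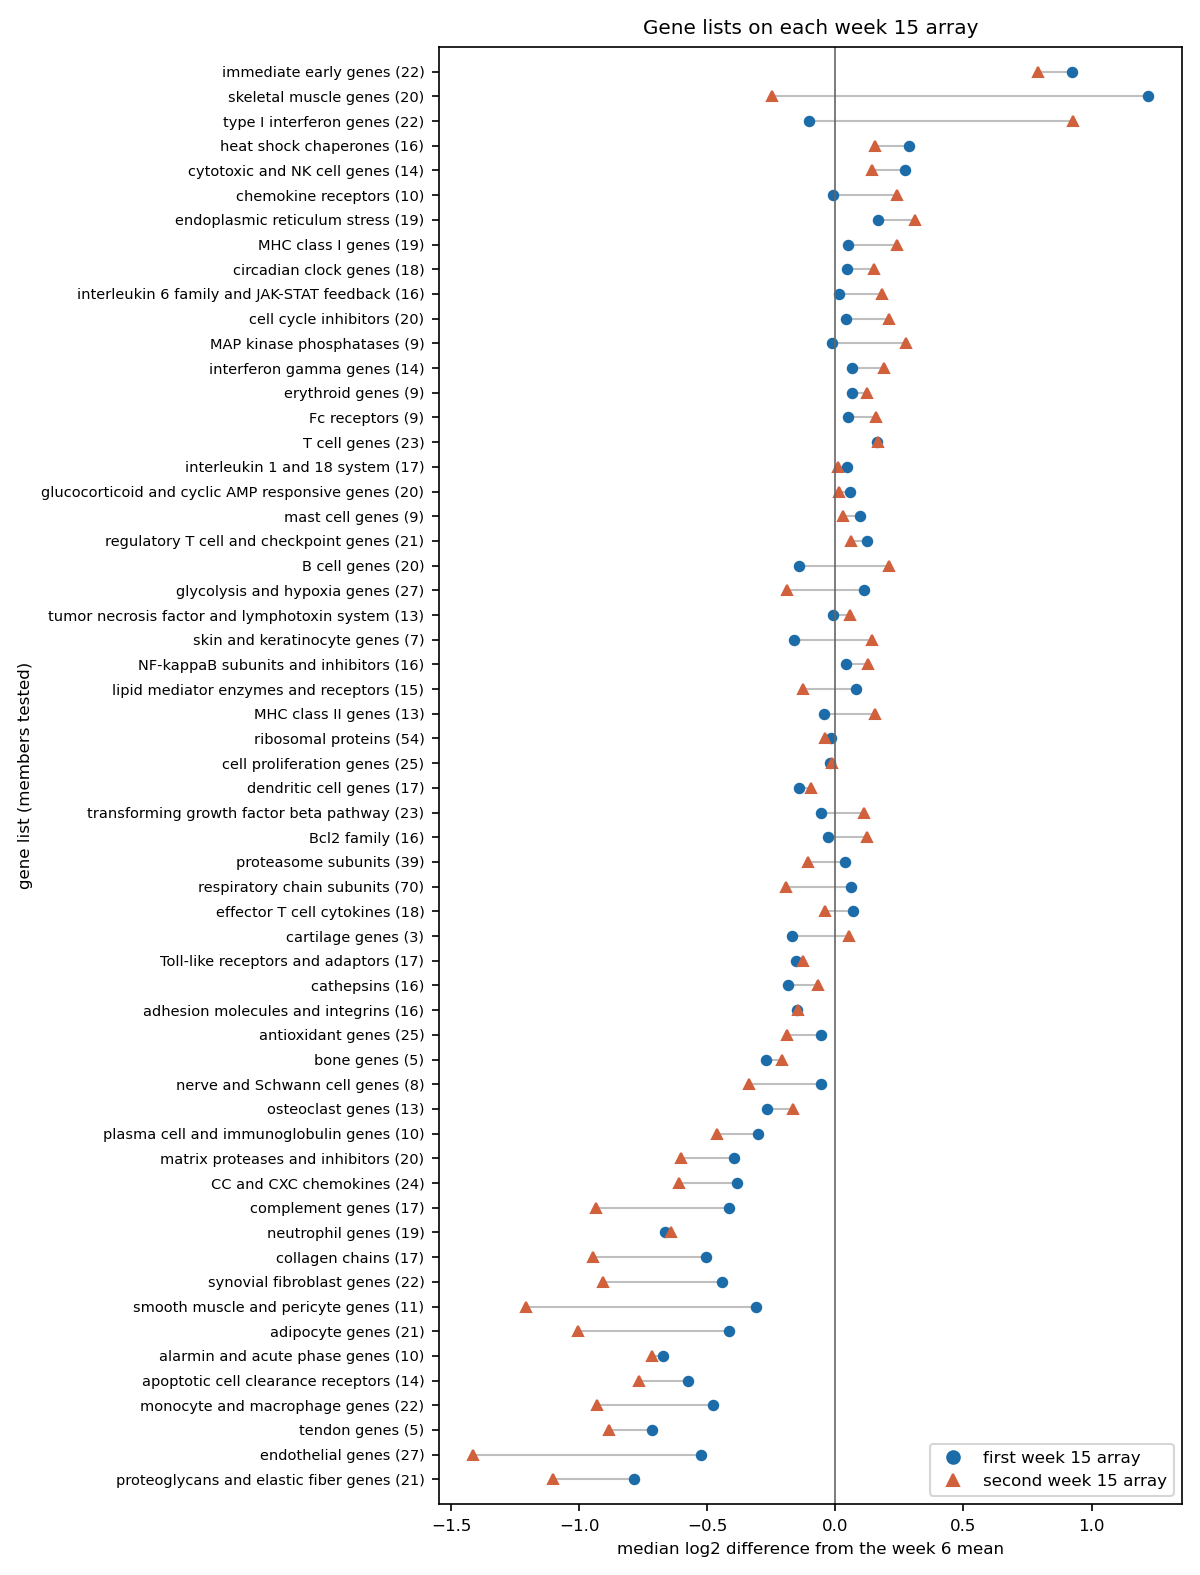
Median log2 difference of each gene list from the week 6 mean (x axis) on the first week 15 array (circles) and the second (triangles), with the members tested in brackets (y axis). The proteoglycan and elastic fiber list sits at -0.79 and -1.10, the immediate early list at 0.92 and 0.79, and the muscle and type I interferon lists are split between the arrays.

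Lists of general cell machinery had medians near that of all features. The median change was -0.02 for 54 ribosomal protein genes, -0.07 for 70 respiratory chain genes and -0.03 for 25 proliferation genes. The respiratory chain was split by array, at 0.06 on the first and -0.19 on the second. Actb and Gapdh, used as reference genes, had changes of -0.06 and -0.05, though 3 of 4 other Actb probes gave -0.91, -0.78 and -0.57.

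Skeletal muscle genes set the first week 15 array apart. By brightest probe, all 38 listed genes on the array had a median level of 7.98 there and between 4.75 and 4.84 on the other 5 arrays, and 27 had a detected probe there against 13 on the second week 15 array. Their summed linear signal was 2802 and 2921 at week 6, 20280 on the first week 15 array and 2589 on the second. Atp2a1, the calcium pump of fast muscle fibers, had a difference from the week 6 mean of 5.91 on the first array and -0.29 on the second. Pvalb, a calcium buffer, had 6.10 and -0.72, and Myl1, a myosin light chain, had 5.48 and -0.97. Acta1, the skeletal actin, was detected only on that array, at 11.46, and lay between 4.34 and 4.52 on the other 5. Actn2 was an exception that was higher on both week 15 arrays, at 8.67 and 8.27 against 7.63 and 7.78 at week 6 (adjusted p = 0.234). It also read 8.79 and 8.35 at week 9. No muscle gene passed. The 5 genes that rose were 2.55 to 6.24 above the week 6 mean on the second week 15 array, where the summed muscle signal was below that of both week 6 arrays. Whether the muscle signal and the changes of these genes are related was not tested.

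**Figure D4:**
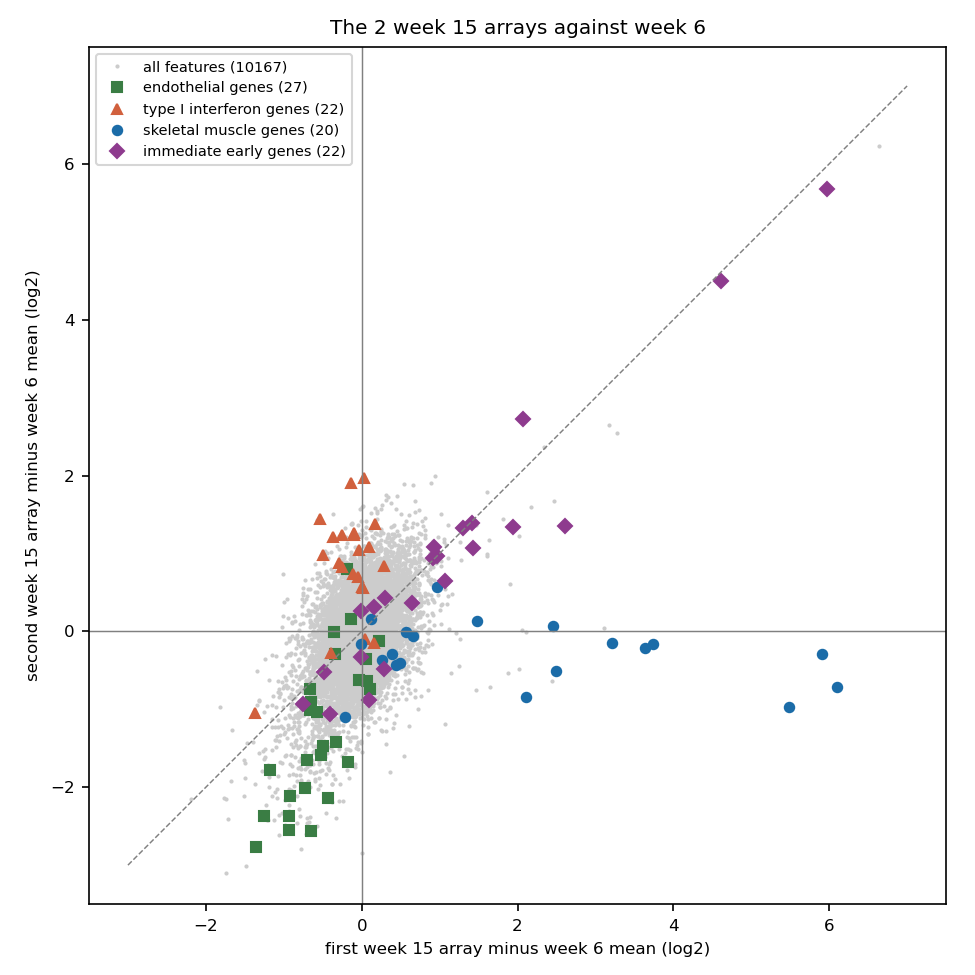
Difference from the week 6 mean on the first (x axis) and second (y axis) week 15 array, in log2 units, for 10167 features (grey) and the members of 4 lists; the dashed line marks equal differences. Fos, at 5.97 and 5.68, and Fosb, at 4.61 and 4.49, lie near the line, muscle genes extend along the x axis up to 6.10, and 20 of 22 type I interferon genes lie above the line.

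Type I interferon genes divided the arrays within both weeks. Of 22 tested, 21 were higher on the second than on the first week 6 array and 20 were higher on the second than on the first week 15 array, by medians of 0.93 and 1.08. The list median was -0.10 on the first week 15 array and 0.93 on the second. At week 9 the order was reversed, with a median level of 9.24 on the first array and 8.25 on the second. Ifit3, an interferon-induced antiviral protein, read 10.15 and 11.75 at week 6 and 10.42 and 12.39 at week 15, so the groups overlapped. Oas3, which activates RNA degradation in infected cells, had differences of 0.03 and 1.97 on the first and second array, and Mx1, an antiviral GTPase, had -0.14 and 1.90. Bst2, the tethering protein of enveloped viruses, was an exception with separated groups and a change of -1.20 (SE 0.20, adjusted p = 0.104).

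**Figure D5:**
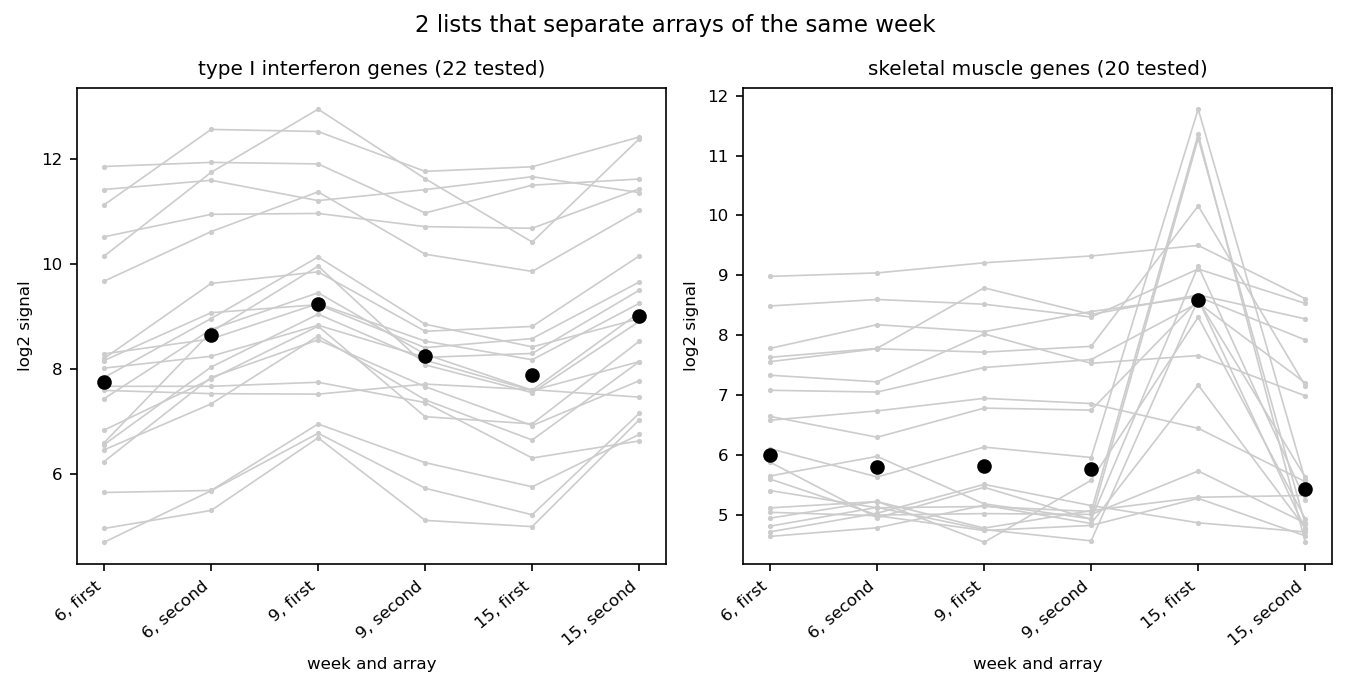
Normalized log2 signal (y axis) on each of the 6 arrays (x axis) of the tested type I interferon genes (left) and skeletal muscle genes (right); grey lines join the values of 1 gene and black points are medians over the genes. The interferon median is 7.75 and 8.64 on the week 6 arrays and 7.89 and 9.01 on the week 15 arrays, and the muscle median is 8.59 on the first week 15 array and 5.44 on the second.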

How the data were processed

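Labelled RNA was measured on Illumina mouse bead arrays. The deposited table holds 1 linear intensity per probe and array, per the file headers; earlier steps are not given in the sources, and 2 columns of other samples were not used. The authors' processed log2 values, of unstated scaling, served as an alternative; they had nearly the same distribution on every array. Of 26821 rows, 1124 carry no probe ID and were taken as control rows; 13 bright ones were left out and 1111 set the background. Intensities were corrected and quantile-normalized with neqc (offset 16, limma 3.58.1, R 4.3.3). Probes with a detection p under 0.05 on at least 2 of 6 arrays were kept (13633), and the brightest probe stood for its gene, which gave 9360 named genes and 807 unnamed probes. Symbols came from the array's annotation, updated through RefSeq where it matched.

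All 6 arrays were fitted with group means (limma lmFit and eBayes, 3 residual and 4.02 prior degrees of freedom). P-values are two-sided with Benjamini-Hochberg adjustment over 10167 features. For a gene at background on both arrays of 1 week, the fold is a lower bound: the bright group's mean against, per array, the higher of the lowest detected signal and the gene's own. The fit was tested on simulated data. The number of arrays limits the precision. Same-numbered arrays did not deviate together in every pair of weeks: the correlation of the differences over genes was 0.154 for weeks 6 and 15, -0.04 for 6 and 9, and -0.08 for 9 and 15. The number was therefore taken only as a name. Type I interferon genes were higher on the second array at weeks 6 and 15, but higher on the first at week 9.

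Genes and 58 lists were chosen with earlier results of these data known. Named were, per direction, the genes that passed and then, up to 12, those of smallest p with separated groups, up to 4 members of smallest p per list, genes chosen by name, and the 6 genes per direction with the largest difference between the week 15 arrays. Other list members were named after their values were seen. Alternatives covered background correction, scaling, the filter on dim probes, probe choice, array weights, the replicate number as a block and leaving out arrays.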

Additional observations from a re-analysis of the deposited data

How the results depend on the processing

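Against 5 genes higher and 0 lower, the counts were 18 and 11 without background correction, 24 and 20 with an offset of 50, 9 and 1 with scaling to the 75th percentile, and 12 and 3 with the authors' values; all 5 genes were called in each of these. Requiring detection on all 4 arrays compared gave 6 and 1, without Fosb, which that filter removed. The replicate number as a block gave 4 and 0, with an adjusted p for Ccl3 of 0.074, and changed no other of the 5 calls. Fitting only the 4 arrays, no filter and array weights also gave 4 and 0 each, and each lost Ccl3. Leaving out single arrays gave from 3 to 377 higher and from 0 to 636 lower genes. Without a week 15 array, the lone one is assumed to vary like the other weeks, whose pairs had SDs of 0.299 and 0.303 against 0.51 at week 15; why the first array moved the counts more than the second was not tested. Myl1 had a change of -0.97 (adjusted p = 0.0486) without the first week 15 array and 5.48 without the second, and Entpd7 had 0.74 (adjusted p = 0.0429) and -1.01. The median of the immediate early list was positive in all 16 settings, and lowest, at 0.21, without the filter on dim probes. Those of the matrix, collagen, fibroblast, endothelial, adipocyte, macrophage and neutrophil lists were negative in all 16. With the authors' values these medians shrank, to 0.31 for immediate early genes, -0.34 for proteoglycans and elastic fibers, and -0.29 for endothelial genes. They were then -0.36 for macrophage, -0.28 for adipocyte, -0.26 for collagen, -0.20 for neutrophil and -0.18 for fibroblast genes. Changes near background depend on the offset.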

Other observations

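Clock genes differed in direction, and none passed. Nr1d1, a repressor in the clock, had a change of -0.89 (adjusted p = 0.211) and Dbp, a clock output factor, had -0.73 (adjusted p = 0.242), while Ciart, a clock repressor, had 0.80 (adjusted p = 0.227) and Rora, an activator, had 0.61 (adjusted p = 0.23). The list median over 18 tested was 0.15. Antigen presentation genes had small changes: H2-K1 and H2-D1 of MHC class I had 0.55 and 0.56, and H2-Ea of class II had 0.75 (adjusted p = 0.152), with list medians of 0.15 and -0.01. Among 39 proteasome subunits, with a median of -0.05, Psmb5, a catalytic subunit, had -1.17 (SE 0.18, adjusted p = 0.0844).

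The genes that differed most between the week 15 arrays, beside muscle and interferon genes, included Gsk3a, a kinase of glycogen metabolism, with differences from week 6 of -0.37 on the first array and 1.51 on the second, and Dhcr7, the last enzyme of cholesterol synthesis, with -0.58 and 1.42.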
